A study of Rattus norvegicus with 89 samples.

Results

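The genes described here are those of fatty acid oxidation and targets of the peroxisome proliferator-activated receptors (PPARs), measured in rat kidney on Affymetrix arrays. The list held 37 genes chosen by name, and 36 of them were measured through 51 probe sets of their own, out of 11420 genes tested. Acaa1a, a peroxisomal thiolase, was represented only by a probe set shared with another gene and has no value. The study held 89 Sprague-Dawley Crl:CD(SD) rats, 44 males and 45 females, aged 7 to 8 weeks at the start and housed singly. Rats received saline, valproic acid, cisplatin, doxorubicin, cadmium, tobramycin or gentamicin (Gentamycin in the labels) once a day for 1 day or for 5 days, and a further group was naive, that is, not treated. Each group held 6 rats, apart from saline at day 1 (7 rats), saline at day 5 (5 rats) and doxorubicin at day 5 (5 rats, of which 2 were male). Each rat gave 1 array of RNA from pieces of both of its kidneys. The design names 5 nephrotoxicants and 2 controls, which are read here as saline and valproic acid. The sources used here give neither doses nor the hour of sampling. In such bulk samples, fewer cells of a type and less RNA per cell cannot be told apart.

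Fatty acids enter mitochondria as carnitine esters, made by carnitine palmitoyltransferases after an acyl-CoA synthetase has activated them. Each turn of beta oxidation then uses an acyl-CoA dehydrogenase, a hydratase, a hydroxyacyl-CoA dehydrogenase and a thiolase, and the electrons pass through the electron transfer flavoprotein to its ubiquinone oxidoreductase. Very long and branched chains are shortened in peroxisomes. In the kidney the proximal tubule depends on this pathway for most of its energy. PPAR alpha binds DNA as a heterodimer with the retinoid X receptor and drives many of these genes in fasting, together with Pdk4, which turns down glucose oxidation, Angptl4, which inhibits lipoprotein lipase, and Plin2, which coats lipid droplets.

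Signals below are MAS5 signals after each array was scaled to a common trimmed mean, and differences are on the log2(signal + 16) scale. Before scaling the trimmed means ran from 91.5 to 352. All 18 proximal tubule markers were measured and above the detection limit used here, a signal of 33.06, in most arrays. This limit is the 40th percentile of the scaled signals of the probe sets, and no detection call was used. The ratio of 3' to 5' Gapdh signal, a measure of RNA degradation, had group medians from 1.21 (naive) to 1.44 (saline at day 5). Single arrays lay far above these medians, with 2.988 in the saline female 1F106 of day 5. Cadmium rat 5F140 of day 5, whose trimmed mean was the lowest, had 2.739. For 5 arrays the treatment text was absent or differed from the title, and the title was used. Rats are numbered as in the titles.

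Sequence was examined first, because PPARs bind direct repeats of AGGTCA with 1 base between the repeats (the element called DR1). RefSeq promoter windows of the GRCr8 assembly, from 250 bases before to 50 after 1 listed start of each gene, were found for 32 of the 37 genes. Those of Acadl, Acaa2, Decr1, Ech1 and Vnn1 were not used here. The motif AGGTCANAGGTCA was searched on both strands with at most 2 mismatches in its 12 fixed letters. It was matched in 7 of the 32 windows (21.9%), against 3.77% of all 33469 windows. The second share counts every window, whereas 1 window was counted for each listed gene. Some of the listed genes were chosen as PPAR targets, and the difference between the shares was not tested. The matches are shown with up to 20 bases on either side, read 5' to 3' on the strand of the gene, and capitals mark the 13 bases of the match. They belong to the carnitine acetyltransferase Crat (chr3:34087290-34087342, minus strand), the carnitine-acylcarnitine carrier Slc25a20 (chr8:118243588-118243600, plus strand), the very long chain dehydrogenase Acadvl (chr10:55236706-55236742, minus strand), the flavoprotein subunit Etfa (chr8:64788087-64788139, minus strand), the hydratase Echs1 (chr1:204333629-204333681, minus strand), the liver-type fatty acid binding protein Fabp1 (chr4:104749243-104749295, plus strand) and the uncoupling protein Ucp3 (chr1:164227833-164227885, plus strand).
Crat: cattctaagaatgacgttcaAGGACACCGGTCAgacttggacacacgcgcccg
Slc25a20: AGGTGAAAGGTCG
Acadvl: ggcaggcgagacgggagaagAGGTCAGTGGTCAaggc
Etfa: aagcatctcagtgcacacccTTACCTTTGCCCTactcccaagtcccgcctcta
Echs1: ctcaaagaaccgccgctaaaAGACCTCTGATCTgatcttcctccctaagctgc
Fabp1: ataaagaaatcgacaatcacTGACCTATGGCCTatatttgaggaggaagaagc
Ucp3: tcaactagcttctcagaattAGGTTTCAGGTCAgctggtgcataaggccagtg

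The match began at base -223 of Crat, -154 of Etfa, -155 of Echs1, -77 of Fabp1, -57 of Ucp3, -17 of Acadvl and +16 of Slc25a20, counted from the listed start of the window. That start is not always the end of the annotated gene. The window of Fabp1 (chromosome 4, 104749090 to 104749389) lies inside its gene (104744302 to 104753119). In Etfa, Echs1 and Fabp1 the repeat lay on the opposite strand. Acadvl and Fabp1 differed from the motif at 1 letter and the other 5 at 2 letters. The windows of Angptl4, Pdk4 and Plin2 held no match in these letters. Those of Angptl4 and Plin2 also lie inside their genes and do not cover the outer ends. A match is a description of sequence, and no binding was measured.

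Of the 36 measured genes, 33 gave a signal above the detection limit on all 89 arrays. The exceptions were Ppara, the receptor itself, above the limit on 8 arrays, Ucp3 on 16 and Fabp1 on 22. Ppara ran from 0.998 to 51.6 over all rats, Ucp3 from 5.97 to 86.7 and Fabp1 from 0.489 to 352. The receptor's own mRNA was therefore measured near or under the limit in most kidneys, while its coactivator Ppargc1a was above it in every rat.

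The Fabp1 signal went with that of liver genes. The rats with the highest Fabp1 were 6F148 (352, doxorubicin at day 1), 2M11 (245, gentamicin at day 1), 6F147 (206, doxorubicin at day 1) and 3M23 (154.99, cisplatin at day 5), and their albumin (Alb) signals were 3579, 3819, 3387 and 3130. Over the 89 rats, taken as deviations from the mean of their group and sex, Fabp1 correlated with the mean of Alb, Apoa1 and Ttr at r = 0.933 (Spearman's rho = 0.906, permutation p = 1e-05 for both, the smallest the permutations can give, adjusted p = 8e-05 over 8 such relations). Without the 2 rats farthest from the median, r was 0.922. The other 7 relations set adipocyte markers against Acsl1, Fabp3, Acot1, Pdk4, Angptl4, Plin2 and Cd36, and none passed adjustment. The strongest was Cd36 at r = 0.248 (rho = 0.157, permutation p = 0.019, adjusted p = 0.0761).

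Among the genes of entry, single rats ran from 1318 to 2579 for Acsl1, from 228 to 503 for the inner membrane transferase Cpt2, from 558 to 1222 for Crat and from 355 to 749 for Slc25a20. The dehydrogenases of short, very long and long chains ran from 361 to 872 (Acads), from 839 to 1318 (Acadvl) and from 1712 to 2897 (Acadl). The flavoprotein subunits ran from 1025 to 2432 (Etfa) and from 2111 to 3807 (Etfb), and their oxidoreductase Etfdh from 280 to 1004. Each of these stayed within one order of magnitude over all 89 rats.

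Later enzymes of the cycle had similar spreads. Decr1 ran from 1583 to 2875, the dienoyl-CoA isomerase Ech1 from 1553 to 3050, Echs1 from 1002.5 to 1770, Hadh from 1479 to 3373 and the peroxisomal and mitochondrial isomerase Eci2 from 910 to 1984. The mitochondrial thioesterase Acot2 ran from 529 to 956 and Ucp2 from 136.7 to 496. The widest spreads among genes detected on all arrays were those of Cd36, from 33.9 to 408, and Angptl4, from 68.2 to 714. Several of the genes are neighbours in the GRCr8 annotation. Hadhb (chromosome 6, 31873404 to 31907557) and Hadha (31907801 to 31947434) lie head to head on opposite strands, so that their promoter windows overlap, Acot2 and Acot1 lie side by side on the same chromosome, and Ucp3 and Ucp2 lie side by side on chromosome 1.

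Levels of the pathway varied little between groups. Among the 33 genes above the limit on all arrays, the highest group mean was 1.1 times (Etfa) to 2.91 times (Angptl4) the lowest, with a median of 1.22, and 27 of the 33 stayed under 1.5. The 6 above that were Angptl4, Pdk4 (2.47), Vnn1 (2.06), Cd36 (1.65), Ehhadh (1.6) and Plin2 (1.51). These encode the lipase inhibitor, the pyruvate dehydrogenase kinase, the pantetheinase vanin 1, the fatty acid translocase, the peroxisomal bifunctional enzyme and the droplet coat protein. Every measured enzyme of the mitochondrial cycle was among the 27.

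The design sets each compound against the saline rats of its own day. None of the 36 genes passed in any of the 12 comparisons (limma, Benjamini-Hochberg adjusted p under 0.05 over all genes), and the lowest adjusted p was 0.241. The background was just as sparse. At day 1 the share of all genes that passed was 0% for gentamicin and cisplatin, 0.0613% for tobramycin, 0.0263% for cadmium, 0.0438% for doxorubicin and 0.0788% for valproic acid. At day 5 it was 0% for gentamicin, tobramycin, cadmium and valproic acid, 0.00876% for cisplatin and 0.114% for doxorubicin. A fit on all 89 arrays also called 0 of the 36, with a lowest adjusted p of 0.207.

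At an unadjusted p under 0.05, 38 of the 432 tests of these genes passed (8.8%, against 6.67% over all genes), and 30 of the 38 were lower than saline. The median difference of the 36 genes was below 0 in 11 of the 12 comparisons, from -0.13 (doxorubicin at day 1) to 0.02 (cisplatin at day 1). Comparisons of 1 day share their saline rats.

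**Figure D1:**
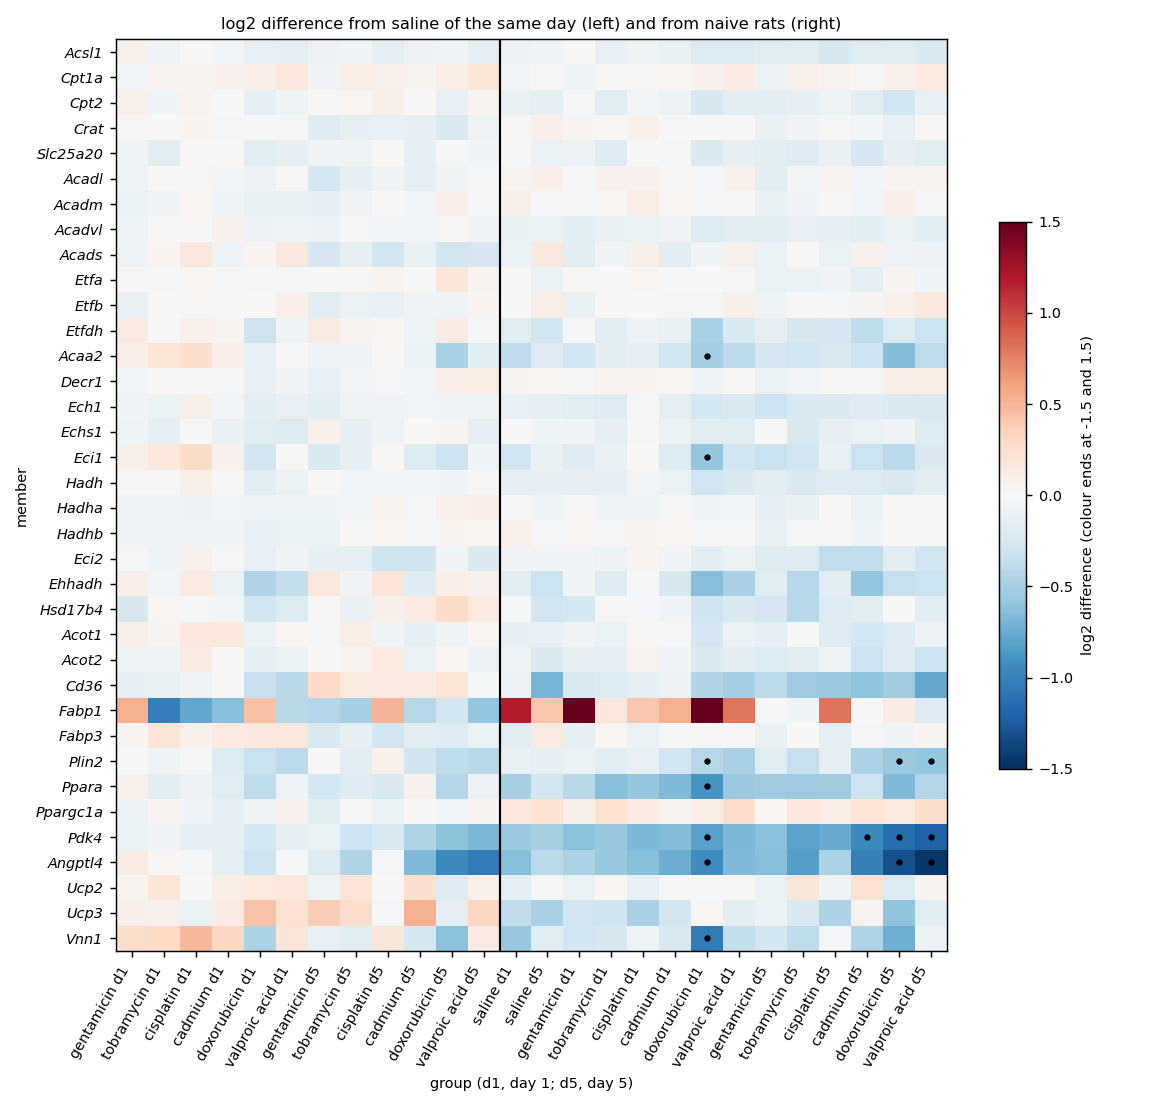
Log2 difference of each of the 36 measured genes (rows, ordered by role) from saline of the same day for 12 comparisons (left) and from the 6 naive rats for 14 groups (right); colour runs from -1.5 to 1.5, and a dot marks an adjusted p under 0.05. Dots appear only in the comparisons with naive rats, 14 in all, in the columns of doxorubicin, of cadmium at day 5 and of valproic acid at day 5; the dot of Ppara lies in a gene whose signals were mostly under the detection limit.

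Genes of mitochondrial entry stood near saline. Cpt1a, the outer membrane carnitine palmitoyltransferase that sets the rate of entry, had group means from 1736 (gentamicin at day 5) to 2045 (valproic acid at day 5), and single rats ran from 1143 to 2352. Its largest difference from saline was 0.18 for valproic acid at day 5, with 6 of 6 rats above the saline mean of their sex (limma adjusted p = 0.762), so the groups could not be told apart. Acot1, a cytosolic acyl-CoA thioesterase, had group means from 1353 (cadmium at day 5) to 1652 (cisplatin at day 1), rats from 926 to 2280, and differences from saline from -0.14 (cadmium at day 5) to 0.16 (cadmium at day 1). Ppargc1a, the coactivator of PPARs and of mitochondrial biogenesis, had group means from 606 (naive) to 724 (valproic acid at day 5) and rats from 501 to 875. Its differences from saline ran from -0.17 (gentamicin at day 5) to 0.07 (valproic acid at day 1). All of these ranges overlapped between groups.

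The lowest adjusted p against saline belonged to Angptl4 at day 5. This gene (chromosome 7, 15252450 to 15259971) read 176, 238, 298, 310 and 496 in the saline rats of day 5. After 5 days of doxorubicin it read 73.2, 151.5, 157.97, 202 and 220, and after 5 days of valproic acid it ran from 83.1 through a median of 145.9 to 160. All 6 valproic acid rats were below all 5 saline rats, whereas doxorubicin and saline overlapped. The differences were -1.04 for valproic acid (SE 0.22, 95% interval -1.52 to -0.57, adjusted p = 0.349, 0 of 6 rats above the saline mean of their sex) and -0.97 for doxorubicin (SE 0.24, adjusted p = 0.241, 0 of 5 rats above it). Neither passed.

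Pdk4 (chromosome 4, 34558327 to 34568329) differed from saline by -0.68 after 5 days of valproic acid (adjusted p = 0.542, 0 of 6 rats above) and by -0.62 after 5 days of doxorubicin (adjusted p = 0.439, 0 of 5 rats above). Its saline rats of day 5 read 252, 404, 597, 623 and 667. Under valproic acid the rats ran from 213 through 303 to 404, and under doxorubicin they read 225, 231, 351, 450 and 567, so both overlapped with saline. The dimmer Pdk4 probe set did not follow, with -0.17 for valproic acid and 0.14 for doxorubicin at day 5, and did not pass. Plin2 (chromosome 5, 106202634 to 106258748) differed by -0.41 after 5 days of valproic acid (adjusted p = 0.352), by -0.39 after 1 day (adjusted p = 0.307) and by -0.38 after 5 days of doxorubicin (adjusted p = 0.439). The rats given valproic acid for 5 days ran from 514 through 587 to 633, all below the saline rats, which read 639, 753, 772, 846 and 962. The dimmer Plin2 probe set gave -0.38, -0.31 and -0.28 in these comparisons, in the same order, and did not pass.

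Doxorubicin at day 1 held the lowest median. In that comparison 11 of the 36 genes had an unadjusted p under 0.05 (9.62% of all genes did), 10 of them lower, and 30 of the 36 were below saline, so that 16.7% were higher against 55.3% of all genes. All 8 mitochondrial hydratases, dehydrogenases, thiolases and isomerases and all 3 measured peroxisomal enzymes were below saline, none past the adjusted threshold. Ehhadh, the peroxisomal bifunctional enzyme, was at 702 through 1065 to 1199 in saline rats and at 559 through 684 to 988 under doxorubicin, a difference of -0.46 (SE 0.13, adjusted p = 0.343). The others with 0 of 6 rats above the saline mean of their sex were Plin2 (-0.33), Etfdh, the ubiquinone oxidoreductase of the electron transfer flavoprotein (-0.31), Hsd17b4, the second peroxisomal bifunctional enzyme (-0.27), the hydratase Echs1 (-0.18), the carrier Slc25a20 (-0.18) and the dienoyl-CoA reductase Decr1 (-0.13). The dimmer Plin2 probe set gave only -0.04. Vnn1 differed by -0.48 (adjusted p = 0.565). Fabp3, the heart-type fatty acid binding protein, was 0.16 higher (5 of 6 rats, adjusted p = 0.492). Groups overlapped for Ehhadh, as its ranges show. Beside this, 11 of 18 proximal tubule markers were lower and all 8 collecting duct markers were higher than saline, with 0 passing in either list, and 3 of 13 measured clock genes rose, among them Dbp, a clock-controlled transcription factor, by 1.61 (adjusted p = 0.0114). Their part in the result was not tested.

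Naive rats served as a second control, an alternative to saline listed for all comparisons. All 12 comparisons share the same 6 naive rats, and since naive rats were given nothing, the giving of a treatment and the compound given cannot be told apart in them. In these comparisons 14 calls were made among the 36 genes, all of them lower than naive, in 4 of the 12. Doxorubicin at day 1 accounted for 7 (2.13% of all genes passed, 1.51% lower), doxorubicin at day 5 for 3 (1.16%, 0.832% lower), valproic acid at day 5 for 3 (0.797%, 0.49% lower) and cadmium at day 5 for 1 (0.131%, 0.0876% lower). The other 8 comparisons called none of the 36, with a background of 0.00876% for gentamicin at day 1 and tobramycin at day 1, 0% for cisplatin at day 1 and gentamicin at day 5, 0.0175% for cadmium at day 1, 0.324% for valproic acid at day 1, 0.0525% for tobramycin at day 5 and 0.123% for cisplatin at day 5. Of these 432 tests 24.5% had an unadjusted p under 0.05, against 10.8% over all genes, and the median of the 36 genes was below 0 in 12 of 12 comparisons, from -0.21 to -0.02.

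Angptl4, Pdk4 and Plin2 made up most of the calls. Angptl4 ran from 357 through 395 to 439 in naive rats. It differed from them by -1.46 after 5 days of valproic acid (SE 0.13, 95% interval -1.73 to -1.19, limma adjusted p = 0.000156), with 0 of 6 rats above the naive mean of their sex. Against the naive rats it also differed by -1.32 after 5 days of doxorubicin (adjusted p = 0.0019) and by -0.94 after 1 day (adjusted p = 0.00634), where it ran from 139.3 through 184 to 297. In none of these 3 groups did any rat reach the lowest naive rat. In all, 62 of the 71 treated rats and 11 of the 12 saline rats read below the lowest naive rat for Angptl4.

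Pdk4 read 865, 1069 and 1116 in naive females and 470, 502 and 573 in naive males. It differed from naive by -1.21 after 5 days of valproic acid (SE 0.17, adjusted p = 0.00599), by -1.14 after 5 days of doxorubicin (SE 0.11, adjusted p = 0.000273), by -0.96 after 5 days of cadmium (SE 0.14, adjusted p = 0.0128) and by -0.82 after 1 day of doxorubicin (SE 0.09, adjusted p = 0.00161). No rat of these 4 groups was above the naive mean of its sex. Below the lowest naive rat stood 49 of 71 treated and 5 of 12 saline rats. The dimmer of the 2 Pdk4 probe sets gave -1.15, -0.86, -0.96 and -0.90 in the same 4 comparisons and did not pass.

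Plin2 ran from 684 through 925 to 948 in naive rats. It differed from them by -0.58 after 5 days of valproic acid (adjusted p = 0.00739), by -0.56 after 5 days of doxorubicin (adjusted p = 0.023) and by -0.43 after 1 day of doxorubicin (adjusted p = 0.0232), with 0 rats above the naive mean of their sex in each. Its dimmer probe set gave -0.30, -0.19 and 0.06 and passed in none of the 3. Below the lowest naive rat stood 33 of 71 treated and 2 of 12 saline rats. The highest Angptl4 (714) and Plin2 (1576) of the whole study were both in 3M24, a male given cisplatin for 5 days, whose Pdk4 was 398.

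**Figure D2:**
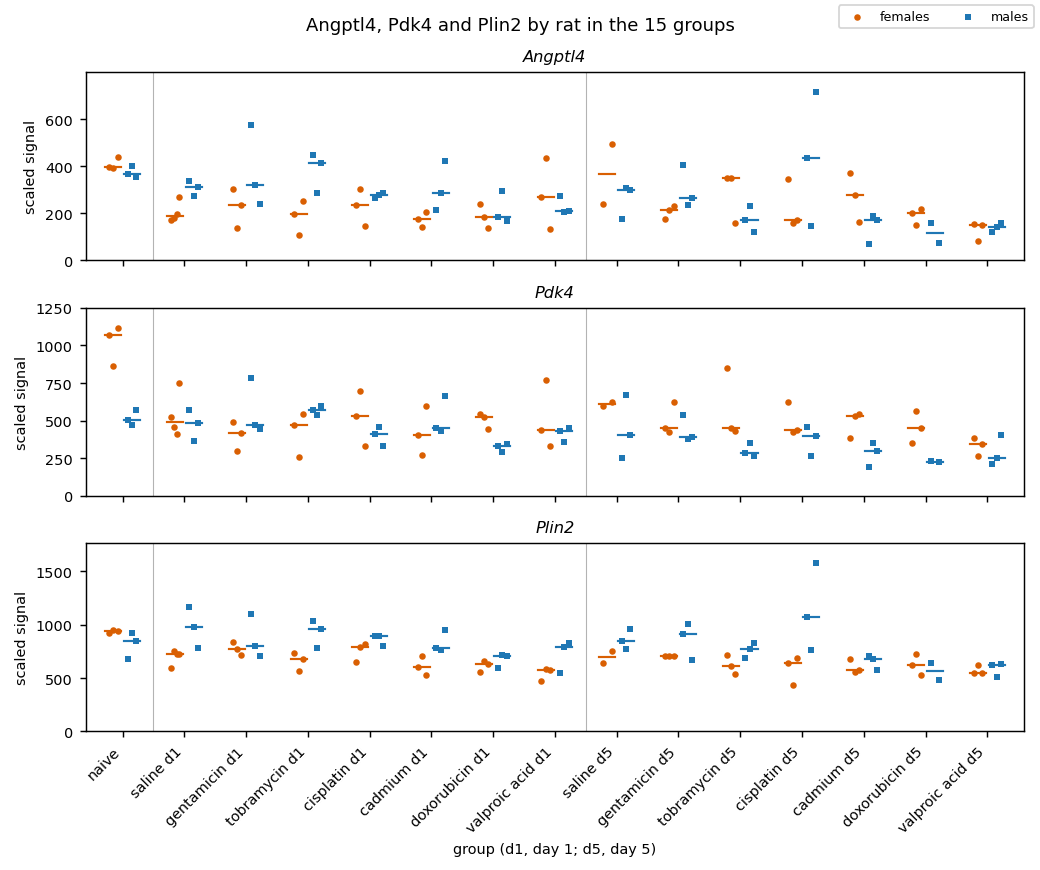
Scaled signal of Angptl4, Pdk4 and Plin2 in every rat of the 15 groups, males and females marked apart, with bars at the median of each sex. Naive rats sit between 357 and 439 for Angptl4, above every rat given valproic acid or doxorubicin for 5 days; for Pdk4 the 3 naive females (865 to 1116) stand above the 3 naive males (470 to 573).

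The other genes lower than naive after 1 day of doxorubicin were the thiolase Acaa2 (-0.52, adjusted p = 0.0195), the enoyl-CoA isomerase Eci1 (-0.58, adjusted p = 0.0138), Vnn1 (-1.05, adjusted p = 0.0265) and Ppara. Eci1 ran from 2047 through 2462 to 2900 in naive rats and from 1262 through 1613 to 1943 under doxorubicin, without overlap. Vnn1 (chromosome 1, 23356324 to 23366629) ran from 772 through 1301 to 2096 and from 315 through 599.7 to 906, and Acaa2 from 1999 through 2855 to 3088 and from 1476 through 1760.1 to 2568, both with overlap. Ppara was above the detection limit in 1 naive rat and in 0 of the 6 doxorubicin rats, so no fold is given.

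These calls moved with the design of the fit and with single rats. The fit on all 89 arrays kept Angptl4, Pdk4 and Plin2 for both day 5 groups and Pdk4 for cadmium, 7 calls in all, and called 0 of the 36 for doxorubicin at day 1 (0.0175% of all genes, against 1.3% for doxorubicin at day 5, 1.42% for valproic acid at day 5 and 0.508% for cadmium at day 5). With the Gapdh 3' to 5' ratio as a term, doxorubicin at day 1 kept 3 of its 7 calls (Angptl4, Eci1 and Pdk4; 1.17% of all genes), and cadmium at day 5 had 2 (Angptl4 and Pdk4; 0.254%). Without a sex term 3 were called for doxorubicin at day 1 (Angptl4, Eci1 and Plin2; 0.613% of all genes), 1 for doxorubicin at day 5 (Angptl4; 0.368%), 2 for valproic acid at day 5 (Angptl4 and Plin2; 0.105%) and 0 for cadmium at day 5 (0.00876%). For doxorubicin at day 1 the count with single rats left out ran from 3 (without naive rat 8M83) to 13 (without naive rat 8M81). The share of all genes in the fits with a rat left out is not given here, so these counts have no background. The cadmium call of Pdk4 was lost without naive rat 8F181 or 8M83, and the call of Plin2 for doxorubicin at day 5 without 6F151, 6M50, 8F181, 8F182, 8F183 or 8M83.

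Other measures moved in the same comparisons. Against naive rats 17 of 18 proximal tubule markers were lower in each of the 4, with medians of -0.28 for doxorubicin at day 1, -0.28 for cadmium at day 5, -0.22 for doxorubicin at day 5 and -0.22 for valproic acid at day 5, and 8, 0, 1 and 1 of them passed. In saline rats 17 of 18 were also lower than naive, at day 1 (median -0.20) and at day 5 (median -0.15), and 0 passed. The summed signal of the 18 markers ran from 61100 to 77080 in naive rats, from 51660 to 61650 after 1 day of doxorubicin and from 49570 to 67470 after 5 days of valproic acid. The largest falls that passed after 1 day of doxorubicin were those of the lactate carrier Slc5a12 (-2.35, adjusted p = 0.0135), the glucose carrier Slc5a2 (-1.97, adjusted p = 0.0135) and the amino acid carrier subunit Slc7a7 (-1.84, adjusted p = 0.0114). Dbp rose in all 4, by 1.07 (adjusted p = 0.0411) for doxorubicin at day 1, 1.70 (adjusted p = 0.00199) at day 5, 1.34 (adjusted p = 0.00473) for valproic acid at day 5 and 1.53 (adjusted p = 0.00142) for cadmium at day 5. No adipocyte marker passed against naive rats. The part of tubule markers and of clock genes in the result was not tested.

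Of 19 measured further PPAR targets, 1 passed as higher and 4 passed as lower after 1 day of doxorubicin against naive. The higher one was the malic enzyme Me1 (0.51, adjusted p = 0.00472). Lower were the lipase inhibitor G0s2 (-0.67, adjusted p = 0.00948), the fatty acid hydroxylase Cyp4a1 (-0.78, adjusted p = 0.0135), the fatty acid transport protein Slc27a2 (-0.44, adjusted p = 0.0287) and the thioesterase Acot4 (-0.80, adjusted p = 0.034). G0s2 was the only one of the 19 to pass at day 5, for doxorubicin (-0.66, adjusted p = 0.0328) and for valproic acid (-0.61, adjusted p = 0.0417), and none passed for cadmium.

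Saline rats read below naive rats for some of these genes, without a call. Against naive, 0 of the 36 passed for saline at day 1 or day 5 (0% of all genes in both, and 0% for saline at day 5 against day 1). Angptl4 ran from 173 through 271 to 340 in saline rats of day 1, all below the naive rats, a difference of -0.64 (SE 0.13, adjusted p = 0.288). At day 5 the difference was -0.40 (adjusted p = 0.78). Pdk4 differed from naive by -0.56 (adjusted p = 0.427) and -0.49 (adjusted p = 0.78), and Plin2 by -0.11 and -0.15. The dimmer Pdk4 probe set gave -0.58 for saline at day 1 and -0.90 at day 5. The medians of the 36 genes were -0.09 and -0.10. Saline rats of day 1 also differed from naive by -0.38 in Acaa2 (limma adjusted p = 0.565), -0.29 in Eci1 (adjusted p = 0.622) and -0.57 in Vnn1 (adjusted p = 0.575).

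No other contrast between treatments passed. The change between day 1 and day 5 relative to saline called 0 of the 36 for each of the 6 compounds (0% of all genes, except 0.0613% for doxorubicin), with a lowest adjusted p of 0.537. Each compound set against the mean of the other 5 of its day called 0 of the 36, with a lowest adjusted p of 0.264 (Plin2, -0.26 for valproic acid at day 1). The background there at day 1 was 0.429% for gentamicin, 0.0701% for tobramycin, 0.00876% for cisplatin, 0% for cadmium and doxorubicin and 0.184% for valproic acid, and at day 5 it was 0.0701%, 0.0263%, 0.517%, 0.035%, 0.149% and 0.0263% for the compounds in the same order. Doxorubicin at day 1 differed from the other compounds by -0.36 in Etfdh (adjusted p = 0.284), -0.42 in Eci1 (adjusted p = 0.298) and -0.81 in Vnn1 (adjusted p = 0.298). Gentamicin and tobramycin, the 2 aminoglycosides, were compared directly on each day, at unknown doses, and 0 of the 36 differed (0% of all genes, lowest adjusted p = 0.634).

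Whether the response differed by sex was tested as an interaction. None of the 36 passed in the 12 interactions (lowest adjusted p = 0.165), where the background was 0.0263% for doxorubicin at day 1, 0.00876% for gentamicin at day 5 and 0% in the other 10. Doxorubicin at day 5 held that lowest value, and rests on 2 males. There 30 of the 36 genes had a lower difference from saline in males than in females, with a median of -0.41 (0.04 over all genes), and 12 had an unadjusted p under 0.05 (7.28% of all genes did), all lower in males. Vnn1 read 336 and 371 in the doxorubicin males, against 820, 985 and 1421 in saline males. In females it read 1181, 1419 and 1514 under doxorubicin and 969 and 1275 under saline. The interaction of Vnn1 was -1.82 (SE 0.31, adjusted p = 0.165).

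Acaa2 had the same form. It read 1019 and 1143 in doxorubicin males against 2051, 2068 and 2595 in saline males, and 2245, 2491 and 2791 in doxorubicin females against 2308 and 2515 in saline females. Its interaction was -1.09 (SE 0.21, adjusted p = 0.294). Eci1 had an interaction of -0.95 (SE 0.28, adjusted p = 0.546), with 1615 and 1335 in doxorubicin males and 1903, 2215 and 2430 in doxorubicin females. The interactions of Ehhadh (-1.13, SE 0.42, adjusted p = 0.631) and of Cd36, the fatty acid translocase (-1.65, SE 0.65, adjusted p = 0.634), rested more on the saline rats, of which 2 were female. Rat 1F106, 1 of these 2 females, had a Gapdh 3' to 5' ratio of 2.988, far above the group medians. Ehhadh was 0.11 higher in males than in females under doxorubicin and 1.24 higher under saline, where the females read 423 and 681 and the males 1021, 1246 and 1678. For Cd36 the male minus female difference was -0.69 under doxorubicin and 0.96 under saline. With deposited values left unscaled, 5 genes passed (Acaa2, Cd36, Eci1, Ehhadh and Vnn1), under a shift of -0.51 in the median of all genes. The share of all genes that passed in that unscaled fit is not given here, so the count has no background. In the same interaction 12 of 18 proximal tubule markers were lower (median -0.38) and 8 of 8 collecting duct markers higher (median 0.50), with 0 passing. Their part was not tested.

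**Figure D3:**
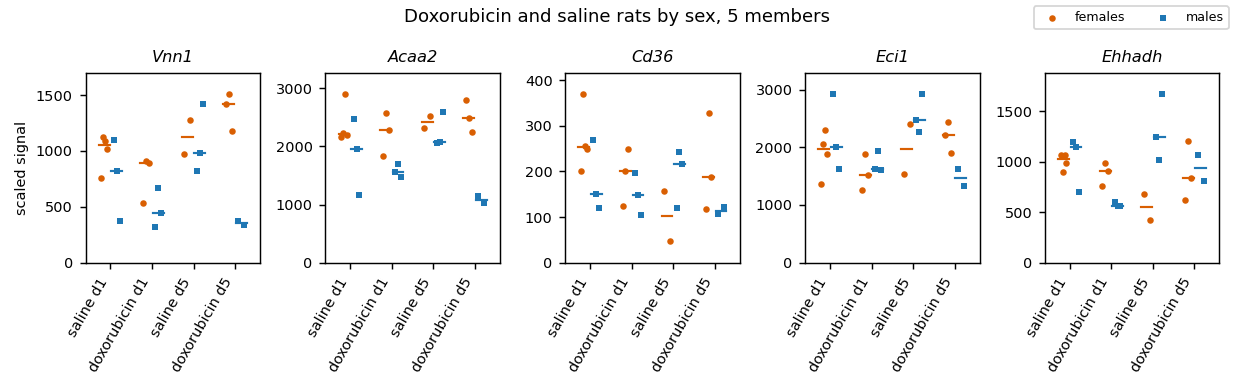
Scaled signal of Vnn1, Acaa2, Cd36, Eci1 and Ehhadh in every saline and doxorubicin rat of days 1 and 5, by sex. The 2 males given doxorubicin for 5 days lie at 336 and 371 for Vnn1 and at 1019 and 1143 for Acaa2, below the other rats of that day; for Vnn1 the 3 doxorubicin females of day 5 lie at 1181 to 1514.

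Most calls among these genes were between males and females. Among the 18 control rats (9 of each sex), 12 of the 36 genes passed, against 23.6% of all genes. Of the 12, 8 were higher in males (9.82% of all genes were) and 4 lower (13.8%). The 8 were all enzymes or electron carriers of beta oxidation. The 4 lower in males were Fabp3, Pdk4, Acot1 and the acyl-CoA synthetase Acsl1. The median difference of the 36 genes was 0.10, against -0.05 over all genes.

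Acadm, the medium chain acyl-CoA dehydrogenase (chromosome 2, 245518693 to 245542864), ran from 3939 through 4415 to 4710 in control males and from 2506 through 2756 to 3119 in control females. The sexes did not overlap, and the difference was 0.67 (SE 0.049, limma adjusted p = 2.9e-09). Hsd17b4, the peroxisomal bifunctional enzyme (chromosome 18, 45515427 to 45604467), ran from 1901 through 2370.1 to 2979 in males and from 1207 through 1392 to 2203 in females. Of the 9 males, 7 were above every female, a difference of 0.70 (SE 0.094, adjusted p = 1.38e-05). Both subunits of the mitochondrial trifunctional protein were higher in males, Hadha by 0.31 (adjusted p = 0.00084; males 1622 through 1775 to 1904, females 1196 through 1430 to 1702) and Hadhb by 0.29 (adjusted p = 0.000895). The dimmer Hadha probe set, at a mean signal of 79.2 against 1573, gave -0.04 (adjusted p = 0.791) in controls and 0.09 (adjusted p = 0.0296) in the 71 treated rats. In controls Hadhb ran from 2550 through 2940.0 to 3204 in males and from 2157 through 2469 to 2671 in females. The remaining 4 were Etfa, a subunit of the electron transfer flavoprotein (0.34, adjusted p = 0.00464), the long chain dehydrogenase Acadl (0.29, adjusted p = 0.00114), the hydroxyacyl-CoA dehydrogenase Hadh (0.29, adjusted p = 0.0108) and Decr1 (0.23, adjusted p = 0.021). Acadl ran from 2328 through 2661 to 2897 in control males and from 1830 through 2166 to 2344 in control females, an overlap of the lowest males with the highest females only. Hadh ran from 2277 through 2573 to 3094 in males and from 1857 through 2199 to 2908 in females. The 6 differences other than those of Acadm and Hsd17b4 lay between 0.23 and 0.34.

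Fabp3 (chromosome 5, 147936027 to 147942870) went the other way. It ran from 1232 through 1650.4 to 1766 in control males, all below the females, which ran from 1870 through 2051 to 2802.5, and differed by -0.46 (SE 0.06, adjusted p = 8.57e-06). Acsl1 differed by -0.27 (adjusted p = 0.00451), with 7 of 9 males below every female, and its second probe set by -0.38 (adjusted p = 0.00423). Acot1 differed by -0.30 (adjusted p = 0.0129), from 1090 through 1399 to 1748 in males and from 1300.4 through 1749 to 1889 in females. Pdk4 differed by -0.54 (adjusted p = 0.0235), but unevenly, by -0.16 in saline rats of day 1, -0.56 in saline rats of day 5 and -0.96 in naive rats. Its dimmer probe set gave -0.27 and did not pass (adjusted p = 0.444).

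**Figure D4:**
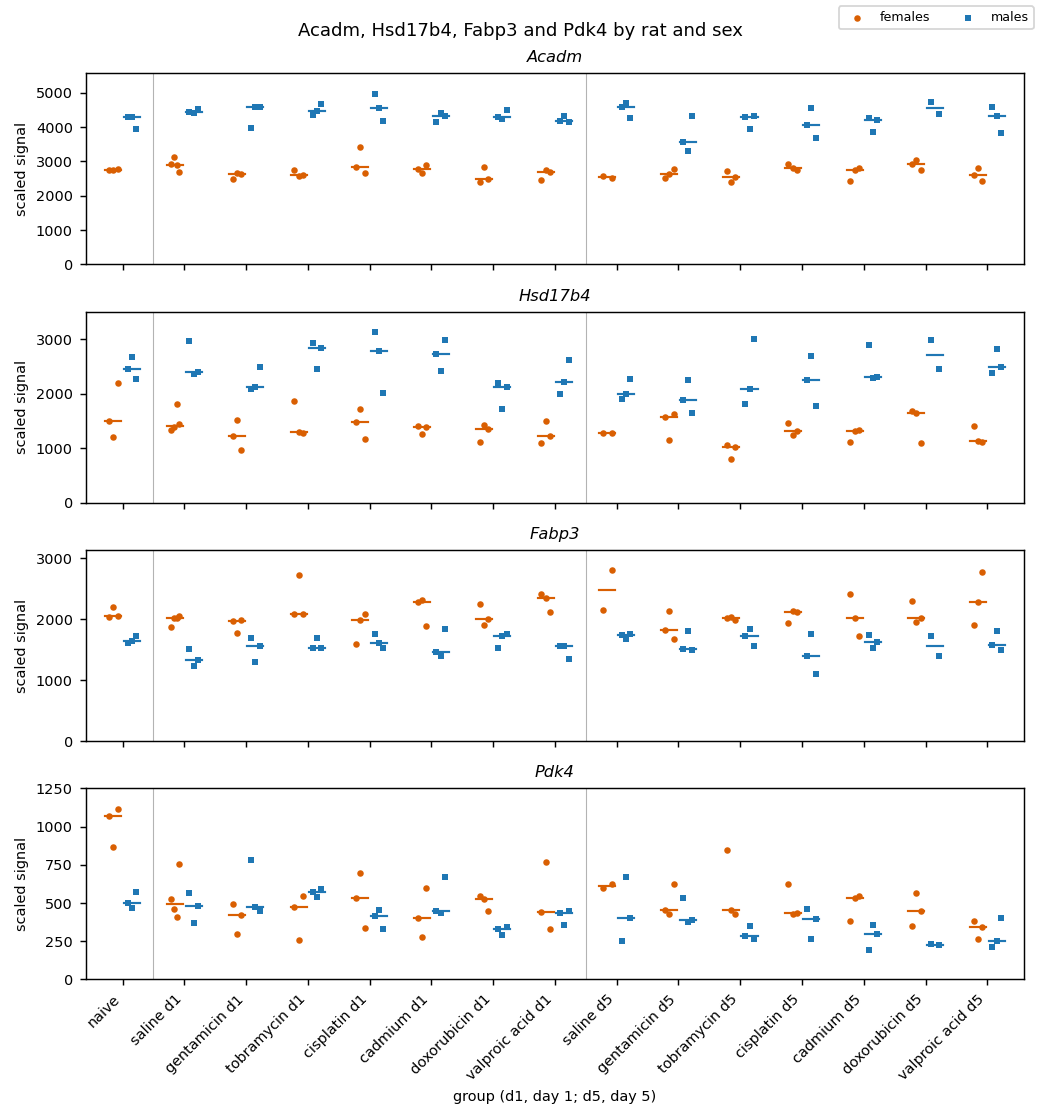
Scaled signal of Acadm, Hsd17b4, Fabp3 and Pdk4 in every rat of the 15 groups by sex, with bars at the median of each sex. For Acadm the control males (3939 to 4710) lie above the control females (2506 to 3119), and the male median is above the female in every group, as for Hsd17b4; for Fabp3 the order is turned, and for Pdk4 males were lower on average in 12 of 15 groups.

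The 71 treated rats, which the control comparison did not use, gave a second test. All 12 genes passed again with the same sign, as did 2582 of the 2700 genes that passed in controls (95.6%). In all 27 of the 36 passed in treated rats (60.4% of all genes), 20 higher in males (22.6%) and 7 lower (37.8%), with a median of 0.19. Acadm differed by 0.66 (SE 0.025, adjusted p = 2.71e-33), and 34 of 35 treated males were above the highest of the 36 treated females. Hsd17b4 differed by 0.86 (adjusted p = 8.59e-22, 31 of 35 males above every female) and Hadha by 0.39 (adjusted p = 2.99e-22). For Hadha all 35 males, from 1526 to 2086, were above all females, from 1185 to 1518. Fabp3 differed by -0.39 (adjusted p = 2.13e-13), with 20 of 35 males below the lowest female.

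Further members of each step passed in the treated rats only. At entry these were Cpt1a (0.21), the inner membrane transferase Cpt2 (0.13), Crat (0.28) and Slc25a20 (0.21), and among dehydrogenases the short chain enzyme Acads (0.29), Acadvl (0.17) and Etfdh (0.27). The isomerases Eci1 (0.29) and Eci2 (0.24), Ehhadh (0.33) and Plin2 (0.27) were also higher in males. Lower in males were Acaa2 (-0.18, adjusted p = 0.0235), the uncoupling protein Ucp2 (-0.22) and Etfb (-0.18, adjusted p = 2.38e-06). Etfb is the partner of Etfa in the electron transfer flavoprotein, and the 2 subunits passed in opposite directions in treated rats. In controls Etfb differed by -0.15 (adjusted p = 0.107), and the difference between the subunits was not tested. Ppara passed as well (0.33, adjusted p = 0.0238), at signals mostly under the detection limit. In controls Ppara had the opposite sign (-0.225, limma adjusted p = 0.495), and males were higher on average in 8 of 15 groups. Acot2, Angptl4, Cd36, Ech1, Echs1, Fabp1, Ppargc1a, Ucp3 and Vnn1 passed in neither set. Each gene is given by its brightest probe set, and dimmer ones did not always follow. That of Acaa2, at a mean signal of 76.8, passed in both sets, at -0.45 (adjusted p = 0.00444) in controls and -0.51 (adjusted p = 1.81e-09) in treated rats. One dimmer Acot2 probe set, at a mean signal of 468, passed in treated rats at 0.25 (adjusted p = 2.95e-05), where the one used gave -0.02. In treated rats the dimmer sets of Pdk4 (0.02, adjusted p = 0.895) and Plin2 (0.10, adjusted p = 0.295) did not pass.

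Group by group the order held for 10 genes in all 15 groups. Males were higher on average in every group for Acadm (0.49 to 0.83), Hsd17b4 (0.41 to 1.23), Etfa, Hadh, Hadha, Hadhb, Acadvl and Crat, and lower in every group for Fabp3 (-0.62 to -0.20) and Acsl1 (-0.47 to -0.01).

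**Figure D5:**
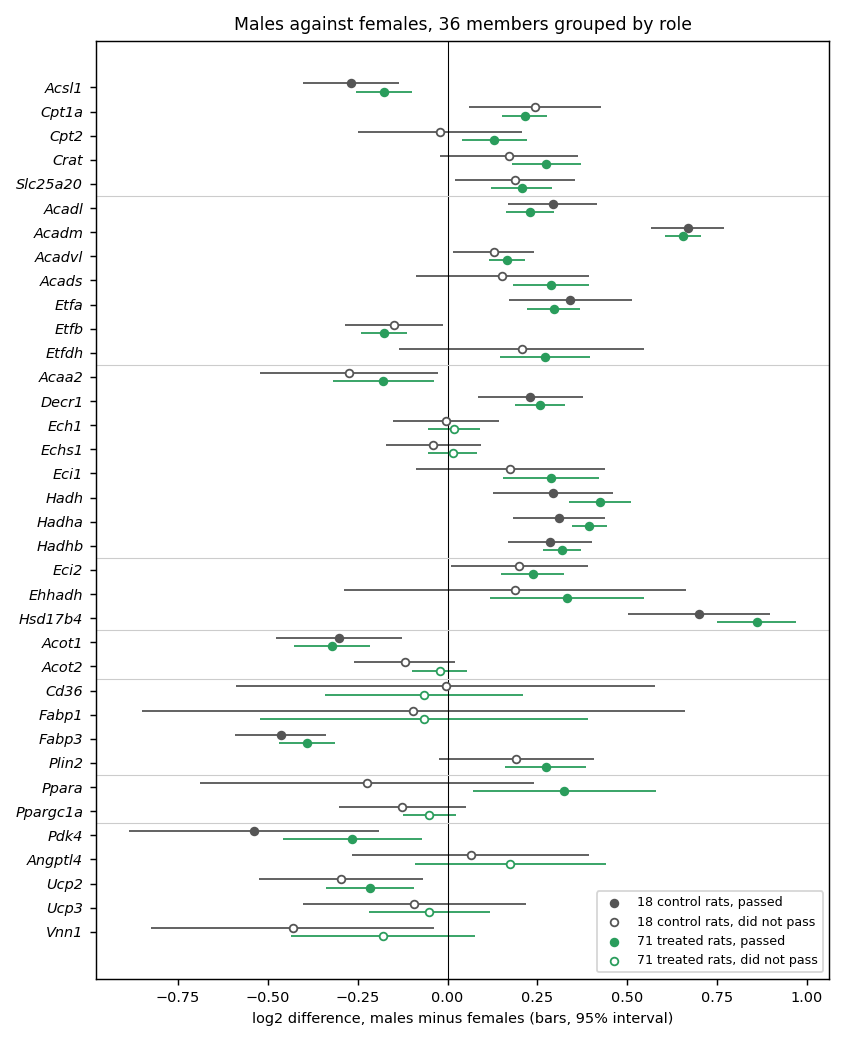
Male minus female log2 difference of the 36 genes with 95% intervals, in the 18 control and the 71 treated rats; filled points passed at an adjusted p under 0.05. Acadm (0.67 and 0.66) and Hsd17b4 (0.70 and 0.86) stand farthest to the right. Farthest to the left are Pdk4 (-0.54) and Fabp3 (-0.46) in controls, and Fabp3 (-0.39) and Acot1 (-0.32) in treated rats, where Pdk4 is at -0.26.

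The split between directions moved with the scaling. Quantile normalization called 12 of the 36 in controls (21.9% of all genes), 6 higher and 6 lower in males. Unscaled values called 2 (6.42% of all genes), Acadm and Hsd17b4, both higher, with the median of all genes shifted by 0.13. In the saline rats of day 1 alone 8 genes passed (8.85% of all genes), 7 of them among the 12, and the other was Angptl4. In the naive rats alone 3 passed (5.07%), and in saline rats of day 5 alone also 3 (3.77%); Acadm was called in all of these groups. Without the 5 arrays of doubtful text 10 passed (17.1%), and Decr1 and Pdk4 (-0.39) were lost.

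Marker lists of cell types are read here against the 23.6% of all genes that passed between the sexes of the control rats. Of 5 tested adipocyte markers 4 were lower in males, among them Cfd (-1.83, adjusted p = 0.0354), Fabp4 (-1.30, adjusted p = 0.0338) and Adipoq (-1.01, adjusted p = 0.00591), and 1, Cidec, was higher. The summed signal of the adipocyte list ran from 703 to 1856 in males and from 472 to 3099 in females. Of 18 proximal tubule markers 12 were higher in males, of which 5 passed, and 6 were lower, of which 1 passed (33.3% passed in all). All 8 collecting duct markers were lower in males, and 4 of them passed (50%). All 6 endothelial markers were lower as well, and 4 of them passed (66.7%). Their part in the result was not tested. With the adipocyte score as a term in the fit 10 of the 12 genes passed (20.8% of all genes), without Acot1 and Decr1.

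Other genes of the pathway are set against the same 23.6%. Of 19 measured further PPAR targets 11 passed (57.9%), 6 higher in control males and 5 lower. Among them were Slc27a2 (0.58, adjusted p = 0.000173), the fatty acid hydroxylase Cyp4a3 (0.53, adjusted p = 0.000441), the carnitine carrier Slc22a5 (0.63, adjusted p = 0.000569) and, lower, the droplet protein Hilpda (-0.36, adjusted p = 0.00704). Of 11 other peroxisomal lipid genes 9 passed (81.8%), 6 higher and 3 lower. They included the enoyl-CoA reductase Pecr at 1.47 (adjusted p = 4.24e-09), the 2-hydroxyacyl-CoA lyase Hacl1 at 1.57 (adjusted p = 4.06e-07) and the thioesterase Acot8 at 0.60 (adjusted p = 4.26e-07). Of 3 measured ketone body genes Bdh1 (0.77, adjusted p = 3.26e-05) and Oxct1 (0.19, adjusted p = 0.0117) passed, both higher. Of 14 nuclear receptors and energy regulators 2 passed (14.3%, below the share of all genes). Both were higher, Esrra (0.25, adjusted p = 0.0299) and the kinase subunit Prkaa2 (0.60, adjusted p = 0.0352). Among 15 further acyl-CoA synthetases and carriers 9 passed (60%), 3 higher and 6 lower. Among 13 triglyceride and droplet genes 7 passed (53.8%), 4 higher and 3 lower. Among 17 genes of branched-chain and related acyl-CoA oxidation 3 passed (17.6%, below the share of all genes), 1 higher and 2 lower. Lists are described by these counts alone, and some genes stand in several lists.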

How the data were processed

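The arrays carry MAS5 signals, per the submitters' processing notes; the deposited series matrix holds these linear intensity values for 31099 probe sets, and the MAS5 scaling target is not given in the sources used here. Arrays were scaled to a common trimmed mean (2% at each end, 181) and taken as log2(signal + 16). A gene was read from its probe set with the highest mean log2 value; 57 control probe sets, 436 with several symbols and 9780 with none were left out, and genes above 33.06 (the 40th percentile) on at least 5 arrays were tested, 11420 of 14217. Fits used limma 3.58.1 under R 4.3.3 (lmFit, then eBayes with its trend and robust options), on the arrays of the groups compared, with sex as a term (group for the sex comparison), and Benjamini-Hochberg adjustment over all genes tested across 61 contrasts each on its own. Values are given in full for members that passed and for Ppara, Ppargc1a, Cpt1a, Pdk4, Angptl4, Acot1, Plin2, Ucp3 and Fabp1; of other lists at most 4 passing genes are named a list and comparison, by smallest adjusted p. The members of the list, the other gene lists and the tests were chosen with earlier results of these data known; male against female among treated rats, each compound against naive rats as a result of its own, the adipocyte term and single control groups were added after the data were seen. Each rat counts as 1 replicate. The number of arrays limits the precision. Alternatives were the fit on all 89 arrays, pseudocounts 1 and 64, no scaling, quantile normalization, no filter, every probe set, no sex term, a Gapdh 3' to 5' term, naive rats as control, the arrays of doubtful text left out, rat 1F104 moved to saline at day 5, and each rat left out. The fit was tested on simulated data. Plots used matplotlib 3.10.9 in Python 3.11.15.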

Additional observations from a re-analysis of the deposited data

Results flagged for a closer look

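In 135 checks of single groups for a rat far from the others (Dixon's test on log2 values, groups of 5 to 7 rats), 6 passed the 95% critical value, and chance gives about 1 in 20. Angptl4 was low in cisplatin rat 3F121 of day 1 (144, next lowest 235; gap over range 0.648). Pdk4 was low in tobramycin rat 4F129 of day 1 (261, next 474; 0.722) and high in valproic acid rat 7F156 of day 1 (767, next 449; 0.639). Plin2 was low in naive rat 8M81 (684, next 849, gap over range 0.662), without which 13 of the 36 genes passed for doxorubicin at day 1 against naive (share of all genes not given). Acsl1 was low in gentamicin rat 2M15 of day 5 (1318, next 1810.0; 0.652). Vnn1 was low in saline rat 1M3 of day 1 (370, next 760.4; 0.645).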

How the results depend on the processing

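No paired analysis was possible because every rat was sampled once and its number does not recur in another group. Against saline, all alternatives kept a count of 0 except naive rats in place of saline (7 for doxorubicin at day 1, 3 at day 5, 1 for cadmium at day 5, 3 for valproic acid at day 5) and no scaling (1 for doxorubicin at day 5, 1 for valproic acid at day 5). Against naive, the Gapdh term gave 3 for doxorubicin at day 1 and 2 for cadmium at day 5. No sex term gave 3, 1 and 0 for doxorubicin at day 1, at day 5 and cadmium at day 5. No scaling gave 5 for doxorubicin at day 5, 2 for cadmium at day 5, 1 for tobramycin at day 5 and 1 for saline at day 1. All 89 arrays gave 0 for doxorubicin at day 1. In the sex interaction of doxorubicin at day 5, no scaling gave 5. For male against female controls no scaling gave 2, naive rats alone 3 and saline rats of day 5 alone 3 (saline rats of day 1 alone 8). Leaving out each rat against naive gave 3 to 13 for doxorubicin at day 1, 3 to 5 for valproic acid at day 5, 0 to 2 for cadmium at day 5, tobramycin at day 5 and valproic acid at day 1, and 0 to 1 for cadmium at day 1 (without 5M39), cisplatin at day 5 (without 3M22) and gentamicin at day 5 (without 2M13). In the sex interactions it gave 0 to 5 for gentamicin at day 5 and 0 to 1 (Cd36) for cisplatin at day 5, both without saline rat 1F105. The cause of these moves was not tested. The share of all genes is not given here for the fits with a rat left out. For unscaled values it is given only for control males against females. Of 3412 values of named genes under the alternatives 3296 kept direction and side of the threshold, 12 passed newly, 0 reversed and the rest fell short of it. Where every probe set was used, only the probe set of smallest p of each gene was counted. Dimmer probe sets of opposite sign, given above for Plin2, Pdk4 and Hadha, therefore do not enter the count of reversals.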
